A study of Mus musculus with 12 samples.

Results

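The genes described here are 51 genes of mitosis and chromosome segregation, out of 19937 genes measured. They were taken by symbol from a list of 52. Ccnb1, encoding cyclin B1, was the listed gene for which no probe set naming that gene alone was found, and it was not analysed here. Each gene was represented by the probe set naming that gene alone, or by the one with the highest mean over 12 arrays where there were several, which applied to Top2a.

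Newly made RNA of mouse macrophages was measured in 4 groups of 3 arrays. Bone marrow-derived macrophages (BMM) were grown out of C57BL/6 marrow in DMEM under macrophage colony-stimulating factor (M-CSF). The other cells, MPI-2, are a single line of macrophages from fetal liver, also labelled C57BL/6, kept in RPMI with granulocyte-macrophage colony-stimulating factor (GM-CSF). Both media held 10% fetal calf serum. Each cell type was taken without stimulation (mock) and with LPS. LPS is lipopolysaccharide, a component of the bacterial outer membrane sensed by Toll-like receptor 4, given as R-LPS at 0.1 mg/ml per the labels. In all 4 groups cells took up 4-thiouridine for 60 min and the RNA that carried it was purified, so each array reads transcription in that window. In the LPS groups the window opened 30 min after LPS and closed at 90 min. Replicates carry the word biological in their titles, but which animal or culture each came from is not stated there. The p-values therefore measure only how far these arrays spread, and some of that spread may be technical.

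Cells divide by condensing their chromosomes, attaching them through kinetochores to a spindle, separating the sister copies and then pinching apart. The genes that carry this out are repressed in resting cells and are transcribed late in the cycle, when repression by the DREAM complex gives way to activation by B-Myb and FoxM1. M-CSF and GM-CSF are growth factors as well as survival factors for macrophages, and LPS is known to halt the proliferation of macrophages growing in M-CSF.

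Values are the deposited log2 expression values. A difference of 1 is a 2-fold difference, group levels are means ± SD (n = 3) and differences are given ± the standard error (SE) of the fit. A gene was called where its adjusted p from limma, a linear model with a moderated variance fitted over all genes, was under 0.05. The background level was taken as 3.36, the 95th percentile of 1027 olfactory receptor genes. All 51 genes had a mean over the 12 arrays above it. Group means fell under it for 5 genes, in BMM only: Cdc25c, Ttk and Kif18a in mock and LPS, and Hmmr and Ncapg in LPS. For these the difference from MPI-2 may understate the difference in RNA, which was not tested. Arrays of a group correlated across all genes at r of 0.975 to 0.989 in BMM and 0.994 to 0.996 in MPI-2. The 9 macrophage markers were above background in all 4 groups. Of 32 markers of other cell types, 15 were under it in every group and 29 stayed under 5; the others were Pf4 (up to 6.86, in BMM), Pdgfra (up to 6.13, in MPI-2) and Ccr7 (up to 5.19, in MPI-2). The 5 stem and progenitor markers (Kit, Cd34, Myb, Gata2 and Hoxa9) averaged 3.16 to 3.46 in the BMM arrays and 2.88 to 3.10 in the MPI-2 arrays.

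The promoters of these genes were searched for letters typical of late-cycle promoters; the genes were taken by symbol, without reading their sequences. The cell cycle homology region (CHR), written here as its core TTTGAA or TTCGAA, is the element bound by DREAM, B-Myb and FoxM1 complexes, and CCAAT is the box bound by NF-Y. Of the 51 genes, 44 had a promoter in the RefSeq table (build GRCm38.p6), taken as 250 bases before to 50 after a start site, and both strands were searched. A CHR core lay in the window of 35 of 44 genes (79.5%), against 19.0% of the 15562 tested genes with a promoter there. A CCAAT box lay in 33 (75.0% against 41.7%), and both together in 31 (70.5% against 7.7%). An E2F site, written as TTTGGCGC or TTTCCCGC, lay in 4 (9.1% against 2.6%). By single promoters of 300 bases, 80.9% of 47 held a CHR core, against 19.2% of all 32851. Since the CHR is known from genes of this kind, the shares are a description, with no test. A match of letters is not a measured binding site.

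**Figure D1:**
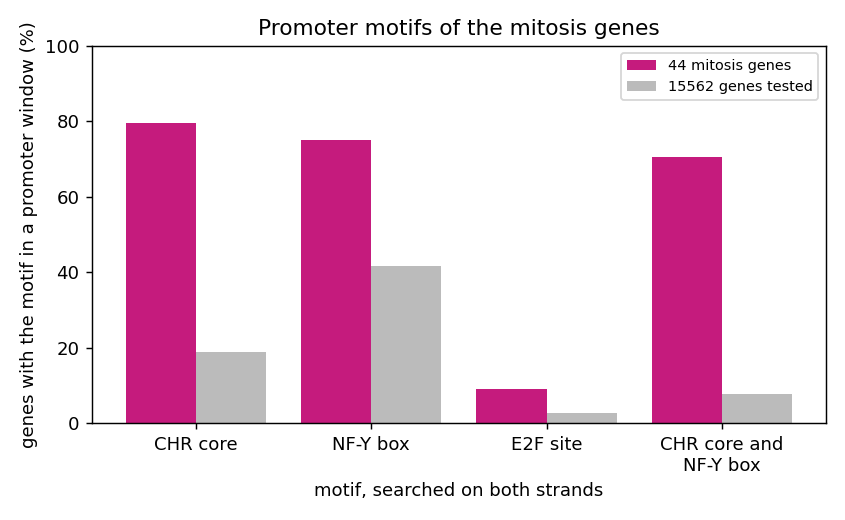
Share of genes with each motif in a promoter window, for the 44 mitosis genes with a promoter in the table (magenta) and the 15562 tested genes with one (grey). CHR cores and the pair of CHR core and NF-Y box are the features most unlike the grey bars, at 79.5% against 19.0% and 70.5% against 7.7%.

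The 250 bases before the start site are shown for 5 genes. Cdk1, Top2a and Ube2c were each called lower with LPS in 1 of the cell types in the fit to all 12 arrays. They were chosen to be set beside Mki67 and Mad2l1, which LPS raised. Sequences run 5′ to 3′ on the gene's strand up to the base before the start, with CHR cores and CCAAT boxes on either strand in capitals (TTCAAA and ATTGG are their reverse complements).
Cdk1, chr10:69352913-69353162, minus strand: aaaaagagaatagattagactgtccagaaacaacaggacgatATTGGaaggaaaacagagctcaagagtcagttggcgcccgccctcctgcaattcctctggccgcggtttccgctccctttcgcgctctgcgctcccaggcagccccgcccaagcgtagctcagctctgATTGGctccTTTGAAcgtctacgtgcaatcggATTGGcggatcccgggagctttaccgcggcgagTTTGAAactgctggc
Top2a, chr11:99024190-99024439, minus strand: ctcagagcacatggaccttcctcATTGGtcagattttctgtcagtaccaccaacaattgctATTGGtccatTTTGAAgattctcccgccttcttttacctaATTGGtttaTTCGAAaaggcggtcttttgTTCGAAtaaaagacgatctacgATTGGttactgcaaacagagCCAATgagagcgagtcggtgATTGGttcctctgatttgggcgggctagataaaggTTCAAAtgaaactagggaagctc
Ube2c, chr2:164769679-164769928, plus strand: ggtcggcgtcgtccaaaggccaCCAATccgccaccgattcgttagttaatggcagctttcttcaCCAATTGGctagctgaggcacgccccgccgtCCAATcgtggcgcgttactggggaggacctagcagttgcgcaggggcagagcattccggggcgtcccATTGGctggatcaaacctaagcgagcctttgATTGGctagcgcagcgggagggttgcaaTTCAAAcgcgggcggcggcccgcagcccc
Mki67, chr7:135716380-135716629, minus strand: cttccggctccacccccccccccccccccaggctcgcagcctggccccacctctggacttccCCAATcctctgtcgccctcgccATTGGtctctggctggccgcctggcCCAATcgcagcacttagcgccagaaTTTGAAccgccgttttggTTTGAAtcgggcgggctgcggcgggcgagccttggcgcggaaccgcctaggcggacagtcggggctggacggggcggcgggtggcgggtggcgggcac
Mad2l1, chr6:66534971-66535220, plus strand: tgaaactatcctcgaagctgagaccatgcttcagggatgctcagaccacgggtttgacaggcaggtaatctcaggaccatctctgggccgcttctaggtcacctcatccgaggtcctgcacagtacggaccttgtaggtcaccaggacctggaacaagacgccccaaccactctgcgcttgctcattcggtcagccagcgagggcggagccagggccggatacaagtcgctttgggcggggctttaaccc
Cdk1 held CHR cores that began 71 and 15 bases before the start, with CCAAT boxes at 208, 80 and 48. Top2a held 4 CHR cores and 6 CCAAT boxes, and Ube2c 1 CHR core, 29 bases before the start, with 6 CCAAT boxes. Mki67 held CHR cores at 116 and 98 and 3 CCAAT boxes, so these letters were present in a gene that LPS raised in BMM as well as in those it lowered. Mad2l1, the gene raised in both cell types, held none of the motifs in its window, which says only that these letters are not there. The same was true of Ncaph and Birc5, called lower in BMM, and of Melk, Nuf2 and Nusap1, called in neither cell type. Cenpa, with the largest decrease in BMM, had CCAAT boxes at 109 and 86 and a CHR core in its window, though not in the 250 bases before the start.

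The first comparison set unstimulated MPI-2 against unstimulated BMM. All 51 mitosis genes were higher in MPI-2, against 20.6% of all genes and 33.2% of the 12030 genes above background called higher in that comparison, and all 3 MPI-2 arrays lay above all 3 BMM arrays for each of the 51, against 23.0% of all genes. The median difference was 2.28 on the log2 scale, a 4.86-fold difference, where the median over all genes was -0.10. Differences ran from 0.60 for Ndc80 to 4.08 for Bub1, and 50 of the 51 genes differed by at least 2-fold. Adjusted p-values ran from 1.55e-12 (Racgap1) to 0.0062 (Ndc80). In these whole-culture samples a smaller share of dividing cells and less new mitotic RNA per cell cannot be told apart. The array medians over the 51 genes were 4.56 to 4.63 in BMM mock and 7.14 to 7.30 in MPI-2 mock. Cell type, tissue of origin, growth factor and medium go together in this comparison, and so do any differences in when the arrays of the 2 cell types were made. The 9 macrophage markers averaged 9.20 to 9.29 in BMM mock arrays and 8.0 to 8.12 in MPI-2 mock arrays, and their part in the result was not tested.

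**Figure D2:**
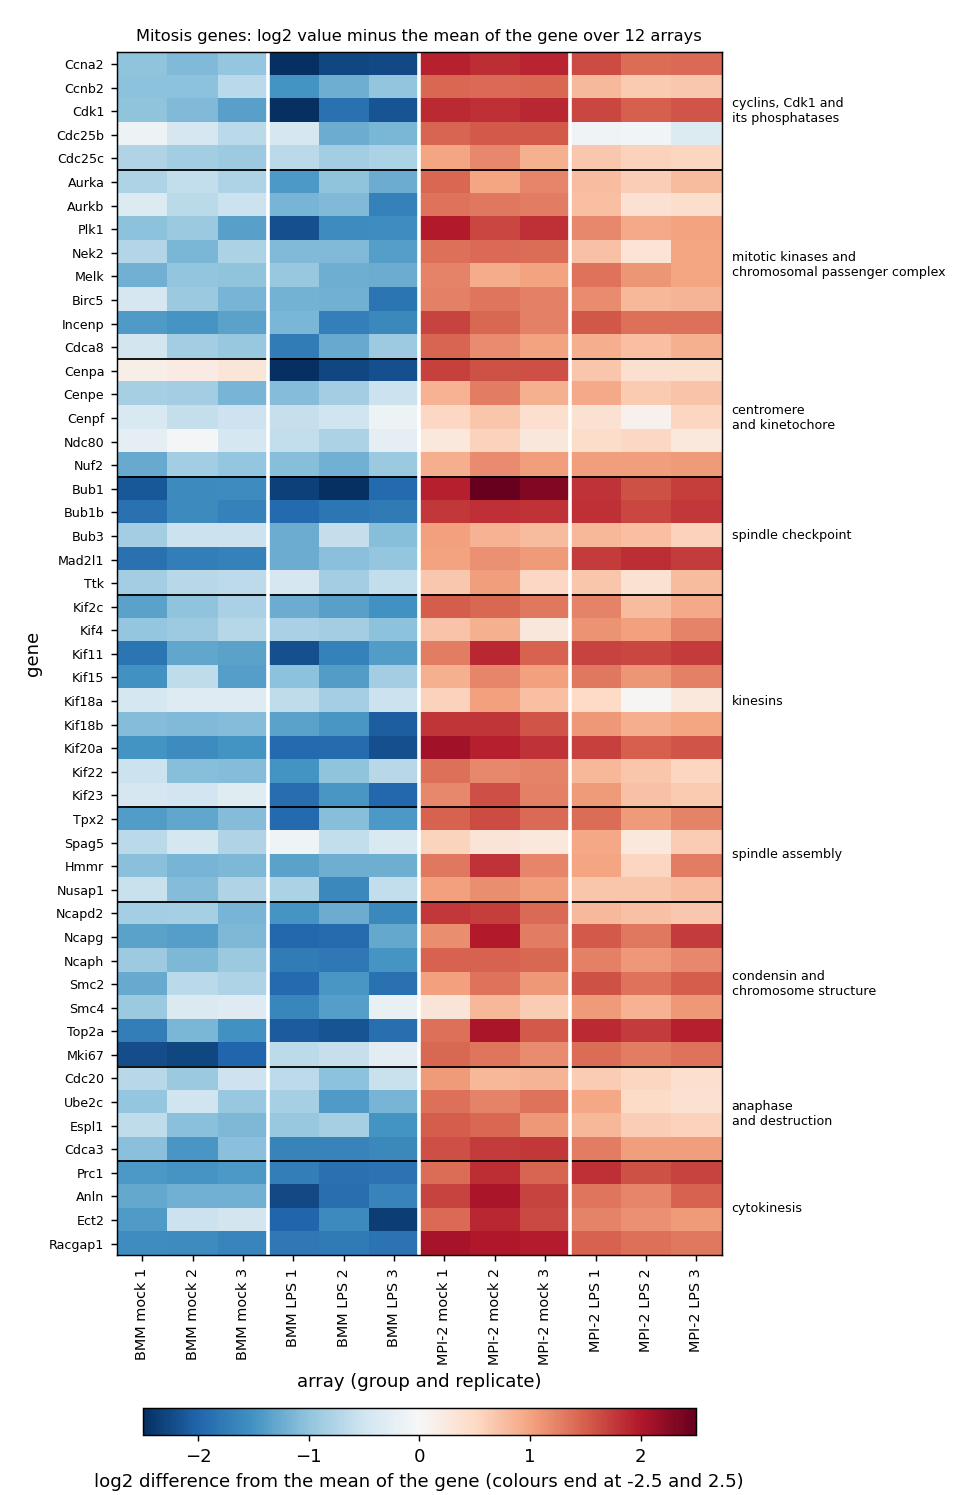
Log2 value of each of the 51 genes on each of the 12 arrays, as the difference from that gene's mean over all arrays, with genes in blocks by role and arrays by group. The 6 BMM arrays lie below the gene means and the 6 MPI-2 arrays above them for nearly all genes, while Cenpa lies slightly above its mean in BMM mock, and Cdc25b close to its mean in MPI-2 LPS.

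After LPS the order was the same. All 51 genes were again higher in MPI-2 LPS than in BMM LPS, against 22.5% of all genes and 36.5% of those above background, with no overlap between the 3 arrays of each group in any of the 51, against 24.4% of all genes. The median difference was again 2.28 (all genes -0.14), from 0.74 for Cenpf to 3.97 for Bub1, and 46 genes differed by at least 2-fold. The array medians were 4.25 to 4.26 in BMM LPS and 6.83 to 7.05 in MPI-2 LPS. Across both treatments, the lowest of the 6 MPI-2 arrays lay above the highest of the 6 BMM arrays for 50 of the 51 genes. Cdc25b was the exception, its lowest MPI-2 array at 5.40 and its highest BMM array at 5.60. Further scaling between arrays removed most of the shift of all genes and left 49 genes called higher in mock and 50 in LPS, with no gene lower. Ndc80 (0.60 in mock) and Smc4 (1.13 in mock) and, in LPS, Cdc25b (0.77) lost their calls there. The medians after cyclic loess, one such scaling, were 2.05 and 1.95.

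**Figure D3:**
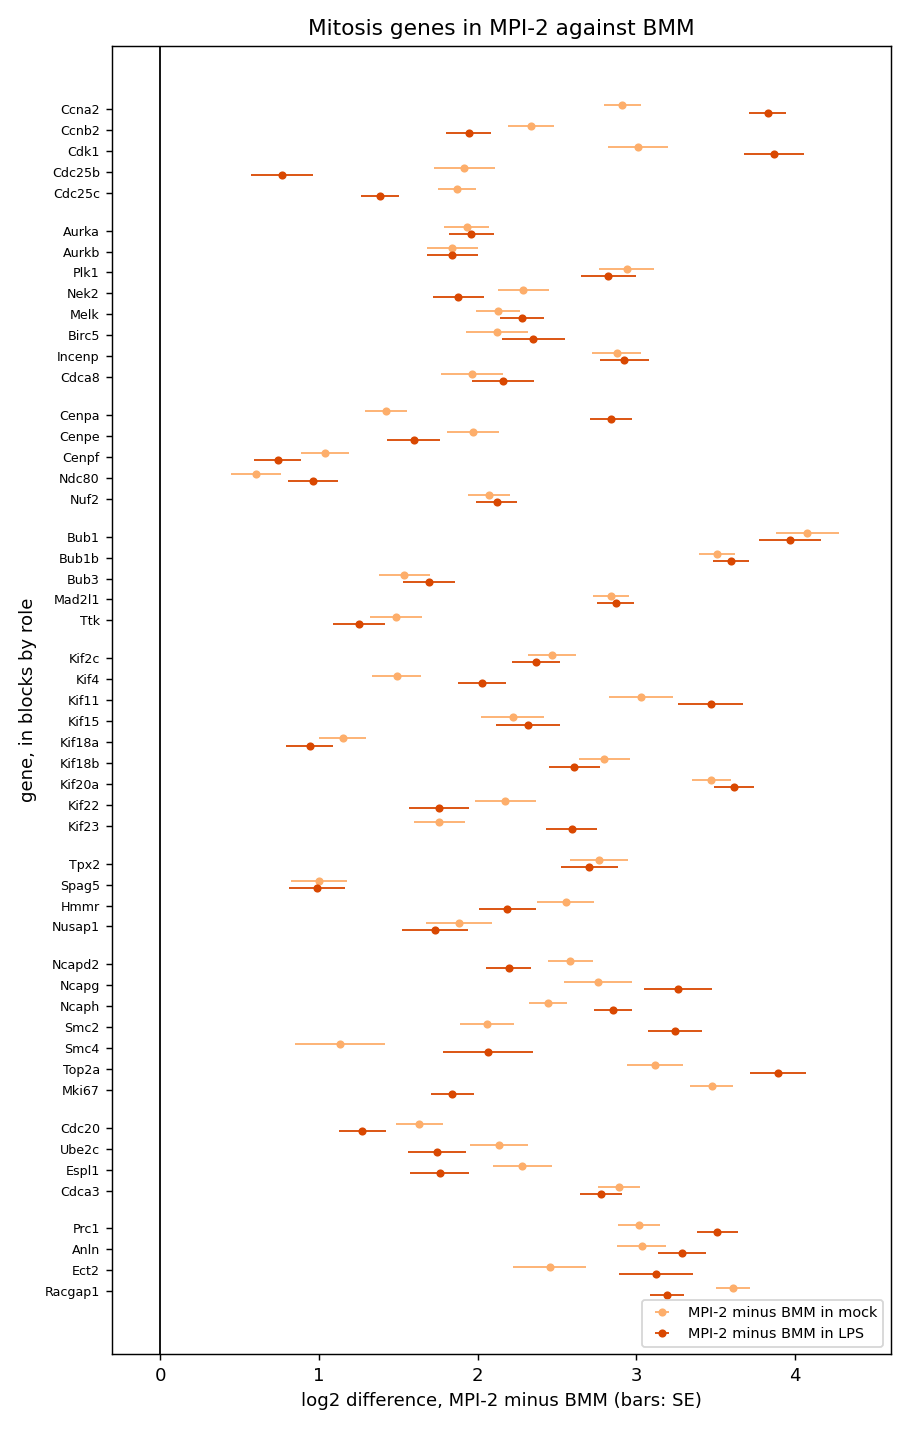
Log2 difference between MPI-2 and BMM for each of the 51 genes, in mock (light orange) and after LPS (dark orange), with SE bars and genes in blocks by role. All points lie to the right of 0, with Bub1 the farthest (4.08 in mock and 3.97 in LPS), and the paired points are widest apart for Mki67, Cenpa, Smc2 and Cdc25b.

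The largest single difference was that of a spindle checkpoint gene. This pathway delays anaphase until every kinetochore is attached. The checkpoint kinase Bub1 was at 3.67, 4.19 and 4.20 in BMM mock and at 7.73, 8.45 and 8.10 in MPI-2 mock. BMM LPS arrays gave 3.45, 3.27 and 3.84, and MPI-2 LPS arrays 7.59, 7.36 and 7.50. BMM values were thus close to background, and Bub1 was 16.9-fold higher in MPI-2 in mock (4.08 ± 0.20, adjusted p = 2.16e-10) and 15.6-fold higher after LPS. Bub1b, encoding BubR1, which binds Cdc20 as part of the checkpoint complex, was at 3.80, 4.07 and 3.97 in BMM mock and 7.42, 7.48 and 7.45 in MPI-2 mock, a difference of 3.51 ± 0.12. Its LPS arrays read 3.71, 3.84 and 3.90 in BMM and 7.49, 7.33 and 7.42 in MPI-2. LPS moved neither level past the threshold (-0.13 in BMM and -0.04 in MPI-2). Mad2l1, encoding Mad2, which sequesters Cdc20, was higher in MPI-2 mock by 2.84 ± 0.12. Bub3, the partner of both Bub1 and BubR1, and Ttk, the kinase Mps1 that starts the signal, differed less, by 1.54 ± 0.16 and 1.49 ± 0.16. Ttk was under background in all 6 BMM arrays, at 2.86, 3.03 and 3.06 in mock and 3.31, 2.86 and 3.10 with LPS, and above it in all 6 of MPI-2, at 4.39, 4.77 and 4.25 and 4.42, 4.09 and 4.52.

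Among cyclins, Cdk1 and its phosphatases, 5 of 5 genes were higher in MPI-2 in each treatment. Cyclin A2 (Ccna2), the partner of Cdk2 and Cdk1 from S phase on, was at 6.59, 6.49 and 6.63 in BMM mock, 9.51, 9.44 and 9.49 in MPI-2 mock, 5.10, 5.31 and 5.33 in BMM LPS and 9.23, 8.98 and 9.01 in MPI-2 LPS. No array of one group overlapped another. The mitotic kinase Cdk1 was at 6.66, 6.58 and 6.33 in BMM mock and 9.54, 9.51 and 9.56 in MPI-2 mock, then 4.84, 5.81 and 5.53 and 9.34, 9.18 and 9.25 with LPS. Both genes were farther apart after LPS than in mock, Ccna2 by 3.83 against 2.91 and Cdk1 by 3.86 against 3.01. The B-type cyclin Ccnb2 was higher in MPI-2 by 2.34 ± 0.14 in mock and 1.94 ± 0.14 in LPS. Cdc25b and Cdc25c, which strip the inhibitory phosphates from Cdk1, differed by 1.92 ± 0.19 and 1.87 ± 0.12 in mock.

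All 8 mitotic kinases and passenger subunits were higher in MPI-2. Polo-like kinase 1 (Plk1), which acts at centrosomes, kinetochores and the midzone, was at 5.42, 5.52 and 5.08 in BMM mock, 8.43, 8.13 and 8.28 in MPI-2 mock, 4.26, 4.89 and 4.90 in BMM LPS and 7.65, 7.40 and 7.46 in MPI-2 LPS. The chromosomal passenger complex corrects faulty attachments and is built from the kinase Aurora B (Aurkb), the scaffold Incenp, survivin (Birc5) and borealin (Cdca8). Incenp stood apart most, at 4.45, 4.40 and 4.53 in BMM mock against 7.56, 7.30 and 7.14 in MPI-2 mock (2.88 ± 0.15), and 4.73, 4.15 and 4.27 against 7.42, 7.26 and 7.25 after LPS (2.92 ± 0.15). Aurkb was at 6.27, 5.94 and 6.08 in BMM mock and 7.98, 7.93 and 7.89 in MPI-2 mock (1.84 ± 0.16). Birc5 was at 4.90, 4.38 and 4.16 in BMM mock and 6.58, 6.66 and 6.57 in MPI-2 mock (2.12 ± 0.20), and Cdca8 differed by 1.97 ± 0.19. The 4 subunits were thus between 3.58-fold and 7.34-fold higher in MPI-2 mock. Aurora A (Aurka), the spindle pole kinase, differed by 1.93 ± 0.14, and the kinase Melk by 2.13 ± 0.14. Nek2, which splits centrosomes, was at 4.10, 3.69 and 4.05 in BMM mock, 6.21, 6.25 and 6.24 in MPI-2 mock, 3.72, 3.73 and 3.46 in BMM LPS and 5.56, 5.17 and 5.82 in MPI-2 LPS.

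Kinesins are motors that move along or dismantle microtubules, and 9 of 9 were higher in MPI-2. Kif20a, which carries the passenger complex to the midzone, was at 4.44, 4.36 and 4.43 in BMM mock and 8.03, 7.88 and 7.74 in MPI-2 mock, 11.1-fold apart (3.47 ± 0.12, adjusted p = 8.16e-12). Its LPS arrays read 3.99, 4.0 and 3.73 in BMM and 7.64, 7.42 and 7.51 in MPI-2. Kif11 (Eg5), which pushes the spindle poles apart, differed by 3.03 ± 0.20 in mock, Kif18b by 2.80 ± 0.16 and Kif2c (MCAK), a microtubule depolymerase, by 2.47 ± 0.15. Kif15, a spindle motor partly redundant with Kif11, differed by 2.22 ± 0.20 and the chromokinesin Kif22 by 2.17 ± 0.19. Kif23, the motor subunit of centralspindlin, the chromokinesin Kif4 and Kif18a, which dampens chromosome oscillation, had the smaller differences, 1.76 ± 0.16, 1.49 ± 0.15 and 1.15 ± 0.15. For spindle assembly factors 4 of 4 were higher. Tpx2, the activator of Aurora A, was at 4.21, 4.30 and 4.52 in BMM mock and 7.07, 7.23 and 7.03 in MPI-2 mock (2.77 ± 0.18), and at 3.67, 4.54 and 4.17 and 7.0, 6.66 and 6.83 after LPS. Hmmr, a spindle pole protein, lay at background in BMM, at 3.44, 3.33 and 3.36 in mock and 3.14, 3.27 and 3.26 with LPS, and differed by 2.55 ± 0.18 in mock. The microtubule-bundling Nusap1 differed by 1.88 ± 0.21 and Spag5 (astrin), at 5.80, 5.57 and 5.50 in MPI-2 mock and 6.21, 5.51 and 5.88 in MPI-2 LPS, by 1.0 ± 0.18.

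Of the kinetochore genes 5 of 5 were called higher in MPI-2. Ndc80 and Nuf2 form one arm of the complex that grips the microtubule end. Nuf2 was at 3.58, 3.98 and 3.88 in BMM mock and 5.75, 6.02 and 5.88 in MPI-2 mock (2.07 ± 0.13), and at 3.78, 3.64 and 3.90 and 5.89, 5.89 and 5.90 after LPS, so that the groups of a cell type overlapped and the cell types did not. In mock its partner Ndc80 was at 4.83, 5.0 and 4.61 and 5.30, 5.61 and 5.33 (0.60 ± 0.16). The kinetochore motor Cenpe differed by 1.97 ± 0.16 and Cenpf by 1.04 ± 0.15. Cenpa, the histone H3 variant that marks the centromere, was at 7.0, 7.05 and 7.15 in BMM mock and 8.56, 8.44 and 8.47 in MPI-2 mock, a difference of 1.42 ± 0.13. After LPS it was at 4.29, 4.58 and 4.66 in BMM and 7.55, 7.25 and 7.25 in MPI-2, a difference of 2.84 ± 0.13. The highest BMM array of Cenpa, in mock, came within 0.10 of its lowest MPI-2 array, in LPS.

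Chromosome structure genes were higher in 7 of 7 cases. Topoisomerase II alpha (Top2a), which untangles sister DNA, was at 4.70, 5.28 and 4.91 in BMM mock and 7.80, 8.47 and 7.97 in MPI-2 mock (3.11 ± 0.18), and at 4.36, 4.27 and 4.55 and 8.30, 8.19 and 8.37 after LPS (3.89 ± 0.18). Its other probe set had a mean of only 2.20 over the 12 arrays. Mki67, encoding the proliferation marker Ki-67 that coats mitotic chromosomes, was at 6.37, 6.30 and 6.59 in BMM mock and 10.01, 9.92 and 9.76 in MPI-2 mock (3.47 ± 0.13). Condensin, the ring that compacts chromosomes, has the core subunits Smc2 and Smc4 and, in condensin I, Ncapd2, Ncapg and Ncaph. Ncaph was at 5.13, 4.92 and 5.10 in BMM mock and 7.51, 7.50 and 7.47 in MPI-2 mock (2.44 ± 0.12), with 4.29, 4.25 and 4.55 and 7.29, 7.11 and 7.24 after LPS (2.85 ± 0.12). Ncapd2 and Ncapg differed by 2.58 ± 0.14 and 2.76 ± 0.22 in mock, Smc2 by 2.06 ± 0.17 and Smc4 by 1.13 ± 0.28.

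The genes of anaphase and mitotic exit followed, 4 of 4 higher, and those of cytokinesis, also 4 of 4. Cdca3, part of the ligase that removes Wee1, was at 4.71, 4.31 and 4.71 in BMM mock and 7.38, 7.50 and 7.53 in MPI-2 mock (2.89 ± 0.13), and at 4.09, 4.10 and 4.14 and 7.05, 6.81 and 6.80 with LPS. Separase (Espl1), which cuts cohesin, was at 4.39, 3.98 and 3.89 in BMM mock and 6.54, 6.47 and 6.10 in MPI-2 mock (2.28 ± 0.18), and BMM LPS arrays (4.07, 4.20 and 3.53) overlapped BMM mock. In mock the ubiquitin-conjugating enzyme Ube2c differed by 2.13 ± 0.18 and Cdc20, which activates the anaphase-promoting complex, by 1.63 ± 0.15. Racgap1, the second subunit of centralspindlin, was at 4.63, 4.61 and 4.53 in BMM mock and 8.25, 8.19 and 8.16 in MPI-2 mock, 12.2-fold apart with SDs of at most 0.05 (3.61 ± 0.11, adjusted p = 1.55e-12). LPS arrays of Racgap1 read 4.40, 4.43 and 4.34 in BMM and 7.67, 7.57 and 7.51 in MPI-2. Anillin (Anln), which scaffolds the contractile ring, differed by 3.03 ± 0.15 in mock, the midzone bundler Prc1 by 3.02 ± 0.13 and the RhoA activator Ect2 by 2.45 ± 0.23. Cytokinesis genes had the largest median difference of the 9 role groups, 3.02 in mock and 3.24 after LPS, and kinetochore genes the smallest, 1.42 and 1.60. BMM mock means of the kinetochore genes Cenpf (3.38), Cenpe (3.77) and Nuf2 (3.81) lay near the background level of 3.36. Those of Ndc80 (4.81) and Cenpa (7.07) did not. The part of this in the order of the groups was not tested.

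LPS was then set against mock within BMM. Of the 51 genes 18 fell and 2 rose, where 15.4% and 10.3% of all genes did, and 24.5% and 14.3% of the 12030 genes whose mean, like that of all 51, was above background. The median was -0.32 (all genes 0.04), and 43 of 51 estimates were below 0. Scaling mattered here. After cyclic loess between the arrays 9 fell and 3 rose with a median of -0.08, and with the 6 BMM arrays fitted alone 10 fell and 2 rose. The spread of all values was narrower in BMM LPS (interquartile range 2.34 to 2.74) than in BMM mock (2.80 to 2.93), and the 9 macrophage markers averaged 8.47 to 8.73 in BMM LPS arrays against 9.20 to 9.29 in BMM mock. The part of either in this result was not tested beyond those fits.

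The largest decrease was that of Cenpa. Its BMM LPS arrays (4.29, 4.58 and 4.66) all lay more than 2 below the mock arrays given above, a 5.9-fold decrease (-2.56 ± 0.13, adjusted p = 8.89e-10). Kif23 went from 5.93, 5.88 and 6.04 to 4.44, 4.90 and 4.40 (-1.37 ± 0.16, adjusted p = 9.19e-06), Ccna2 fell by 2.5-fold (-1.32 ± 0.12) and Cdk1 by 2.19-fold (-1.13 ± 0.19, adjusted p = 0.000272). The 3 arrays of each group did not overlap for any of these, as the rule for picking the largest differences required. Ect2 went from 5.01, 5.89 and 5.96 to 4.44, 4.83 and 4.07 (-1.17 ± 0.23), with one mock array well under the other two but above all LPS arrays. These genes act at different steps, from S phase entry (Ccna2) to the midbody (Kif23, Ect2).

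By role, decreases in BMM were most frequent among the kinases and passenger subunits, 5 of 8, and the chromosome structure genes, 4 of 7. This order depended on scaling. After cyclic loess Aurkb alone of the kinases and passenger subunits was still called lower, and Ncaph and Smc2 of the chromosome structure genes. Anln and Ect2, the 2 of 4 cytokinesis genes called lower, kept their calls. Aurkb fell from 6.27, 5.94 and 6.08 to 5.46, 5.51 and 4.93 (-0.80 ± 0.16, adjusted p = 0.00134) and Plk1 from 5.42, 5.52 and 5.08 to 4.26, 4.89 and 4.90 (-0.66 ± 0.17). Among spindle motors and condensin subunits, Kif18b fell from 5.15, 5.12 and 5.15 to 4.88, 4.77 and 4.17 (-0.53 ± 0.16) and Ncapd2 from 4.61, 4.63 and 4.30 to 3.98, 4.20 and 3.84 (-0.50 ± 0.14). Smc2 fell from 4.57, 5.14 and 5.05 to 3.88, 4.37 and 3.96 (-0.85 ± 0.17), and Ncaph (-0.69 ± 0.12), Anln (-0.72 ± 0.15) and Kif20a (-0.50 ± 0.12) were lower as well. Calls were lost after both scalings between arrays, renewed quantile normalization and cyclic loess, for Plk1 (-0.51 and -0.45), Aurka (-0.29 and -0.34), Kif18b (-0.38 and -0.30), Top2a (-0.43 and -0.36), Birc5 (-0.58 and -0.29) and Cdca8 (-0.54 and -0.29). After cyclic loess alone they were lost for Kif20a (-0.24), Ncapd2 (-0.23) and Cdca3 (-0.20). Calls of Aurka, Kif18b, Ncapd2 and Cdca3 rested on single arrays as well. Aurka was not called in the absence of mock replicate 2 (-0.46) or LPS replicate 1 (-0.41), Kif18b in that of mock replicate 3 (-0.53) or LPS replicate 3 (-0.31), Ncapd2 in that of mock replicate 2 (-0.45) or LPS replicate 3 (-0.42) and Cdca3 in that of mock replicate 1 or 3 (-0.40 for either). For Top2a (-0.57 ± 0.18) the arrays concerned were replicates 2 (-0.41) and 3 (-0.60) of BMM mock and 1 (-0.55) and 2 (-0.51) of BMM LPS. Birc5, at 4.13, 4.12 and 3.49 in BMM LPS (-0.57 ± 0.20), was barely called (adjusted p = 0.0445) and lost it without any of 9 single arrays (-0.62 to -0.36), as did Cdca8 (adjusted p = 0.0468) without any of 10 (-0.61 to -0.33). Some genes gained a call in this way, among them Ncapg (-0.66), Smc4 (-0.96), Ndc80 (-0.48) and Ccnb2 (-0.45) without BMM LPS replicate 3, Bub1 without that array (-0.66) or BMM mock replicate 1 (-0.67), Bub3 without BMM LPS replicate 2 (-0.52) and Cdc25b without the third mock array (-0.66) or the first LPS array (-0.79). No spindle assembly gene was called in BMM; the one nearest was Spag5, at 4.57, 4.81 and 4.49 in mock and 5.13, 4.64 and 4.86 in LPS (0.26 ± 0.18, adjusted p = 0.332). Both scalings called Spag5 higher, at 0.58 after quantile normalization and 0.53 after cyclic loess (limma, adjusted p = 0.0286 and 0.048).

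Both increases in BMM stood out against this. Mki67 rose from the mock values given above to 7.92, 8.0 and 8.32, a 3.16-fold increase (1.66 ± 0.13, adjusted p = 1.6e-07), and the BMM LPS arrays then lay between BMM mock and MPI-2. Mad2l1 rose from 5.58, 5.72 and 5.75 to 6.21, 6.40 and 6.48 (0.68 ± 0.12, adjusted p = 0.000318). Both kept their call in all 22 alternative fits. The other 4 checkpoint genes were not called, with -0.50 ± 0.20 for Bub1, -0.33 ± 0.16 for Bub3, -0.13 ± 0.12 for Bub1b and 0.11 ± 0.16 for Ttk. Of the kinetochore genes Cenpa alone was called, the other 4 lying between -0.32 (Ndc80) and 0.12 (Cenpe).

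**Figure D4:**
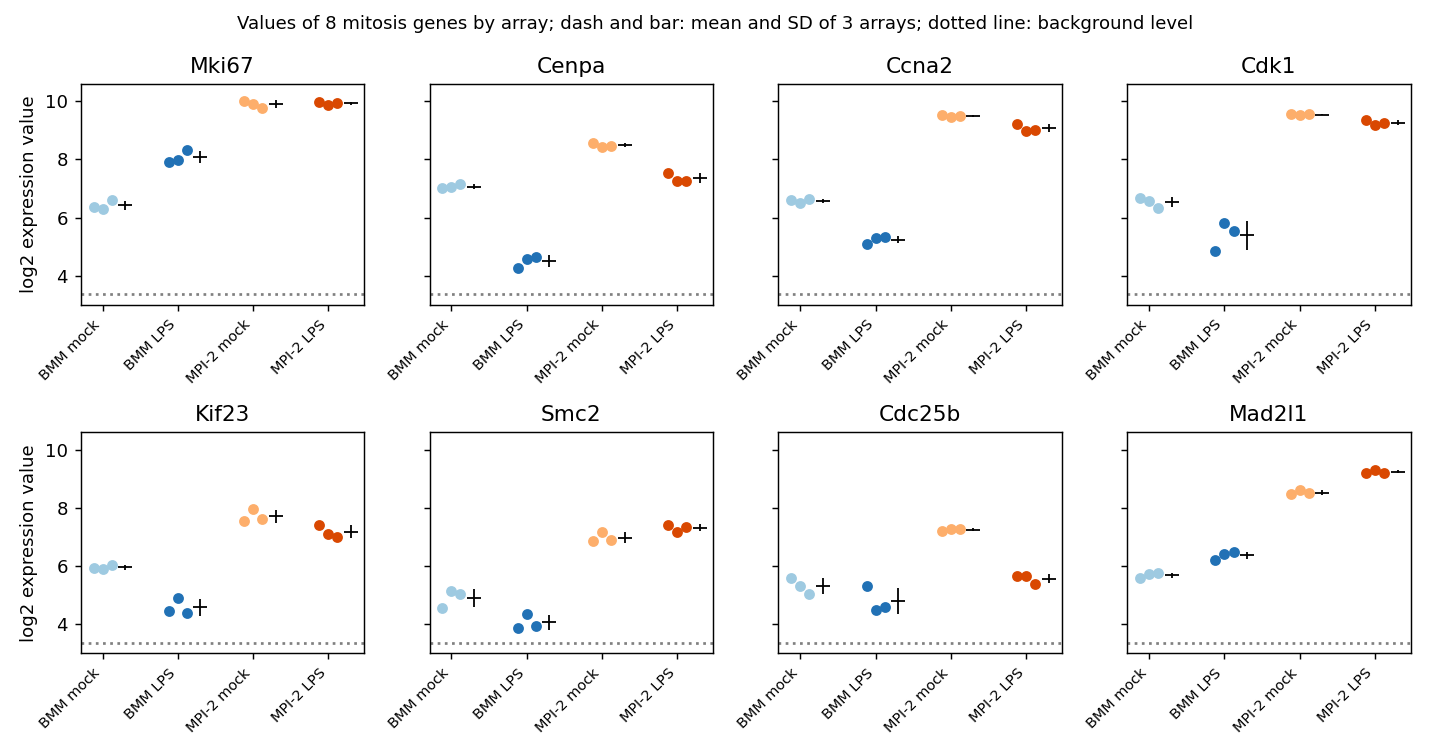
Log2 values of 8 genes on each array by group, with the mean and SD of 3 arrays beside the points and the background level, 3.36, as a dotted line. Mki67 is the gene that rises with LPS in BMM and overlaps mock in MPI-2, Cenpa, Ccna2 and Kif23 fall farther in BMM, Cdk1 and Smc2 fall in BMM, Cdc25b falls farther in MPI-2, and Mad2l1 rises in both.

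Within MPI-2, LPS lowered 17 of the 51 genes and raised 2, where 9.58% and 5.17% of all genes fell and rose, and 15.5% and 8.02% of those above background. The median was -0.36 (all genes 0.02). After cyclic loess 15 fell and 3 rose with a median of -0.22. The count depended on single arrays: without MPI-2 LPS replicate 2 it was 10 lower and 1 higher, and without MPI-2 LPS replicate 3 it was 11 and 1. With the 6 MPI-2 arrays fitted alone, whose replicates were closer together than those of BMM, 29 fell and 4 rose.

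The phosphatase Cdc25b fell most, from 7.19, 7.28 and 7.26 in mock to 5.65, 5.66 and 5.40 with LPS, a 3.19-fold decrease (-1.67 ± 0.19, adjusted p = 1.93e-05). Cenpa came next, from 8.56, 8.44 and 8.47 to 7.55, 7.25 and 7.25 (-1.14 ± 0.13, adjusted p = 1.69e-05). Ncapd2 went from 7.22, 7.19 and 6.87 to 6.27, 6.19 and 6.14 (-0.89 ± 0.14). In each of these the 3 LPS arrays lay wholly below the 3 mock arrays, as the same rule for picking required. Aurkb fell from 7.98, 7.93 and 7.89 to 7.37, 6.99 and 7.05 (-0.80 ± 0.16), Plk1 from 8.43, 8.13 and 8.28 to 7.65, 7.40 and 7.46 (-0.78 ± 0.17) and Kif18b from 8.01, 8.02 and 7.79 to 7.30, 7.12 and 7.21 (-0.72 ± 0.16). Racgap1, Ccnb2 and Nek2 were lower by 1.53-fold, 1.64-fold and 1.64-fold (adjusted p = 0.000737, 0.0023 and 0.0057), and Cdca3 fell by 1.5-fold.

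Decreases in MPI-2 covered 4 of 5 genes of the Cdk1 module and 3 of 4 of anaphase and exit, against 1 of 7 chromosome structure genes and 0 of 4 spindle assembly genes. Espl1 fell to 5.85, 5.64 and 5.59 (-0.68 ± 0.18) and Ube2c by 1.64-fold (-0.71 ± 0.18), while Cdc20 was at -0.38 ± 0.15 (adjusted p = 0.108). Renewed quantile normalization ended the calls of Cdc25c (-0.20), Kif18a (-0.40) and Espl1 (-0.50), and cyclic loess those of Aurka (-0.40) and Ube2c (-0.58). Some calls also rested on single arrays. Ccna2 (-0.36 to -0.43), Aurka (-0.37 to -0.51) and Kif4 (0.33 to 0.56) lost theirs without any of 5 of the 6 MPI-2 arrays, the exceptions being MPI-2 LPS replicate 1 for Ccna2 and MPI-2 mock replicate 2 for the other two. Without MPI-2 LPS replicate 2 or 3, Cdc25c (-0.42 and -0.40), Espl1 (-0.65 and -0.63), Kif18a (-0.40 and -0.52), Kif23 (-0.49 and -0.45) and Ube2c (-0.65 and -0.60) lost theirs. These 5 also did so without MPI-2 mock arrays, namely Cdc25c without replicate 1 (-0.45) or 2 (-0.33), Espl1 without 1 (-0.59) or 2 (-0.63), Kif18a without 2 (-0.40) or 3 (-0.54), Kif23 without 2 (-0.41) or 3 (-0.58) and Ube2c without 1 (-0.69). Hmmr, at 5.80, 6.29 and 5.70 in mock and 5.47, 5.02 and 5.76 with LPS (-0.52 ± 0.18, adjusted p = 0.0698), was called without MPI-2 LPS replicate 3 (-0.69).

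Kif23 and Ect2, which work together at the cleavage plane, had fallen by over 2-fold in BMM. In MPI-2, Kif23 went from 7.55, 7.96 and 7.62 to 7.42, 7.09 and 7.01 (-0.54 ± 0.16) and Ect2 from 7.85, 8.30 and 8.07 to 7.66, 7.56 and 7.49 (-0.50 ± 0.23, adjusted p = 0.198). Birc5 was at 6.49, 6.15 and 6.16 in MPI-2 LPS, below mock on every array yet not called (-0.34 ± 0.20, adjusted p = 0.352).

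Mad2l1 rose in MPI-2 as well, from 8.46, 8.60 and 8.51 to 9.21, 9.29 and 9.20 (0.71 ± 0.12, adjusted p = 0.000437). It was the one gene of the 51 called higher in both cell types. Kif4 rose from 5.33, 5.50 and 4.89 to 5.74, 5.63 and 5.86 (0.50 ± 0.15, adjusted p = 0.0354), while in BMM it was at 3.65, 3.70 and 3.90 and 3.81, 3.75 and 3.59 (-0.04 ± 0.15). Mki67 was at 9.97, 9.85 and 9.94 in MPI-2 LPS, overlapping the mock arrays (0.03 ± 0.13, adjusted p = 0.958). Top2a (0.21 ± 0.18), Smc2 (0.34 ± 0.17), Kif11 (0.16 ± 0.20), Kif15 (0.18 ± 0.20) and Prc1 (0.13 ± 0.13) had positive estimates that were not called.

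The lists called lower in BMM and in MPI-2 shared 9 genes, Aurka, Aurkb, Ccna2, Cdca3, Cenpa, Kif18b, Kif23, Ncapd2 and Plk1, which is 9 of the 18 and 9 of the 17. In BMM alone Anln, Birc5, Cdca8, Cdk1, Ect2, Kif20a, Ncaph, Smc2 and Top2a were called lower, and in MPI-2 alone Ccnb2, Cdc25b, Cdc25c, Espl1, Kif18a, Nek2, Racgap1 and Ube2c. With the 6 MPI-2 arrays fitted alone, Anln, Birc5, Cdca8, Cdk1, Ect2, Kif20a and Ncaph were called lower in MPI-2 too. Being called in one cell type and not in the other does not show a difference, which was tested directly. In all, 33 genes had negative estimates in both cell types, 4 had positive ones in both, and 22 were called in neither.

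**Figure D5:**
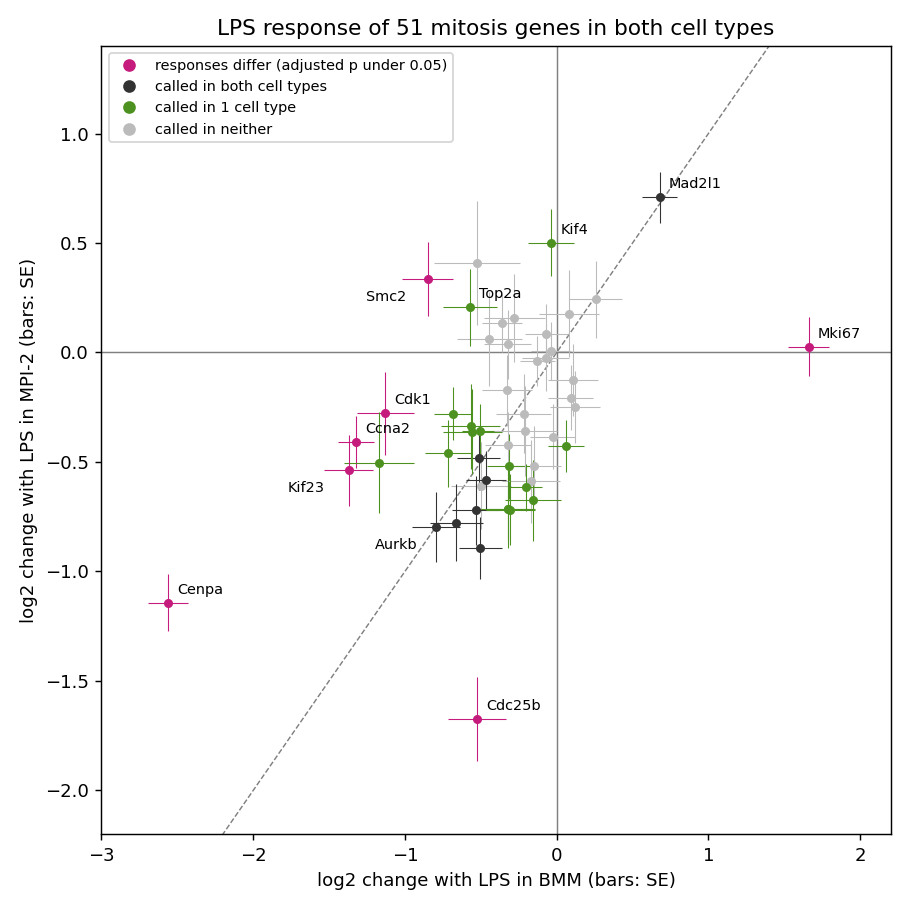
Log2 change with LPS in BMM (horizontal) and in MPI-2 (vertical) for the 51 genes, with SE bars in both directions and a dashed line of equal change. The 7 genes whose responses differed past the threshold are drawn in magenta, with Mki67 to the right at 1.66 in BMM and 0.03 in MPI-2 and Cenpa to the left at -2.56 and -1.14, while Mad2l1 and Aurkb lie on the line.

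The responses differed past the threshold for 7 of the 51 genes, a share close to the 13.4% of all genes. For 5 (9.80%) the value was higher in MPI-2, against 7.08% of all genes and 11.1% of those above background. For 2 (3.92%) it was lower, against 6.27% and 9.84%. The median difference was 0.03 (all genes -0.02). Mki67 differed most, rising in BMM and not in MPI-2 (-1.63 ± 0.19, adjusted p = 2.23e-05). Cenpa fell in both, by 5.9-fold in BMM and 2.21-fold in MPI-2, and the responses differed by 1.42 ± 0.18 (adjusted p = 6.48e-05). Smc2 fell in BMM and went from 6.85, 7.19 and 6.89 to 7.42, 7.18 and 7.34 in MPI-2, a difference of 1.19 ± 0.24 (adjusted p = 0.00316). Cdc25b fell farther in MPI-2, its BMM arrays overlapping at 5.60, 5.32 and 5.06 in mock and 5.33, 4.50 and 4.59 with LPS (-0.52 ± 0.19, not called), a difference of -1.15 ± 0.27 (adjusted p = 0.00968). Ccna2 fell farther in BMM, by 0.92 ± 0.17 (adjusted p = 0.0014). These 5 genes kept the call in all 21 alternative fits.

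For Cdk1 (0.85 ± 0.27, adjusted p = 0.0461) and Kif23 (0.83 ± 0.23, adjusted p = 0.0237) the difference of responses was less secure. Cdk1 lost its call after renewed quantile normalization (0.56) and without any of 9 single arrays (0.58 to 0.89), and was 0.58 without BMM LPS replicate 1, the lowest Cdk1 array of that group. Kif23 lost its call without BMM mock replicate 3 (0.79), MPI-2 mock replicate 1 (0.76) or 3 (0.79), BMM LPS replicate 1 (0.76) or MPI-2 LPS replicate 1 (0.71). Top2a, at 0.78 ± 0.25, just missed (adjusted p = 0.0527) and was called without BMM mock replicate 1 (0.91), MPI-2 mock replicate 2 (0.97) or BMM LPS replicate 3 (0.85). Smc4, at 4.99, 5.24 and 6.43 in BMM LPS, was called without replicate 3 of that group (1.37 against 0.93). In the 5 role groups without a call the genes with the smallest adjusted p were Racgap1 (-0.41 ± 0.15), Espl1 (-0.52 ± 0.26), Nek2 (-0.41 ± 0.23), Hmmr (-0.37 ± 0.25) and Ttk (-0.23 ± 0.23), none of them called. Racgap1 was called after both scalings (-0.63 after quantile normalization and -0.53 after cyclic loess), and Espl1 with array weights (-0.70) or without BMM LPS replicate 3 (-0.72). Quantile normalization also called Kif4 (0.68) and Prc1 (0.58), and cyclic loess Cdc25c (-0.50). The estimated responses lay closest together for Aurkb (-0.80 in BMM and -0.80 in MPI-2).

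Other genes of cell division were read from lists of their own, and most were higher in MPI-2. The genes named from them were picked after their values were seen. In mock this held for 26 of 32 other kinetochore and centromere genes with none lower, led by Ska3 (3.22 ± 0.16), a subunit that couples kinetochores to shrinking microtubules, and for 22 of 29 centrosome and spindle genes with none lower, led by Cep55 (2.90 ± 0.17), which recruits the machinery of the final cut between daughter cells. Of 17 cohesin genes 10 were higher, led by Cdca5, encoding the cohesion factor sororin (3.72 ± 0.14), and 2 lower, the subunit Stag2 (-1.0 ± 0.27) and the loader Nipbl (-0.75 ± 0.17). Of 22 regulators of mitotic entry and exit 20 were higher, led by the Cdk-binding protein Cks1b (3.79 ± 0.18), and 1 lower, the stress-responsive kinase Plk2 (-1.82 ± 0.14). The list of the anaphase-promoting complex held its subunits together with the coactivator Fzr1, the inhibitor Fbxo5 and the ubiquitin-conjugating enzyme Ube2s. It had 11 of 17 genes higher, 1 lower and a median of 0.73, which was 0.43 after either scaling. For comparison 40 of 40 DNA replication genes were higher, with a median of 2.01, so a shift of every gene of a list was not confined to mitosis. After LPS the counts higher and lower were 25 and 0, 20 and 0, 11 and 2, 20 and 1, 12 and 2, and 39 and 0 in the same order of lists. The 12 of the anaphase-promoting complex list became 7 after quantile normalization and 8 after cyclic loess. The shares of all genes called higher in MPI-2 were 20.6% in mock and 22.5% after LPS. For genes above background they were 33.2% and 36.5%.

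LPS within each cell type lowered part of these lists too. Of all genes, 15.4% fell and 10.3% rose in BMM, and 9.58% and 5.17% did in MPI-2. In BMM 7 of the 32 kinetochore genes fell and 1 rose, in MPI-2 10 and 1, the latter becoming 2 and 2 after renewed quantile scaling. The entry and exit list had 10 of 22 lower and 2 higher in BMM, including the Cdk1-inhibiting kinase Wee1 (-2.04 ± 0.19), and 8 lower (5 after cyclic loess) and 1 higher in MPI-2, the latter Plk2 (3.26 ± 0.14). DNA replication genes fell in 20 of 40 cases in each cell type with none higher. After quantile normalization those lower in MPI-2 were 13, and after cyclic loess 15 were lower and 2 higher in BMM. The centrosome list had 5 of 29 lower and 2 higher in BMM and 8 and 1 in MPI-2 (5 and 2 after quantile normalization), cohesin 4 of 17 and 1, and 1 and 0, and the anaphase-promoting complex 4 of 17 and 1, and 1 and 0. The shares lowered in BMM were 17.2% to 23.5% in these 3 lists and 21.9% in the kinetochore list. They were not far from the 15.4% of all genes and under the 24.5% of those above background. In MPI-2 the shares were 27.6%, 5.88% and 5.88% in these 3 lists and 31.2% in the kinetochore list. Of genes above background, 15.5% fell there. After cyclic loess no cohesin gene was called lower in either cell type.

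The transcription regulators of the late cycle also differed. Of 23 measured, 16 (69.6%, against 20.6% of all genes) were higher in MPI-2 in mock and none lower. Foxm1, the activator of late-cycle genes, was higher by 2.83 ± 0.14 and Mybl2, encoding B-Myb, by 2.31 ± 0.19. After cyclic loess or renewed quantile scaling 16 were higher and 2 lower. With LPS in MPI-2, 10 fell (43.5%, against 9.58% of all genes) and 1 rose (4.35%, against 5.17%), and 8 and 3 did after cyclic loess. Of genes above background, 15.5% fell and 8.02% rose. Foxm1 went from 7.11 ± 0.10 to 6.31 ± 0.14 (-0.81 ± 0.14, adjusted p = 0.000701) and Mybl2 from 6.98 ± 0.05 to 5.83 ± 0.29 (-1.15 ± 0.19). In BMM 8 of the 23 fell and 3 rose (6 and 5 after cyclic loess). There 15.4% of all genes fell and 10.3% rose, and 24.5% and 14.3% of those above background. Neither Foxm1 nor Mybl2 was called in BMM (-0.15 ± 0.14 and -0.17 ± 0.19), and the responses differed for both (adjusted p = 0.0361 and 0.0251). E2f8, a repressive member of the E2F family, rose with LPS in BMM from 6.05 ± 0.40 to 7.40 ± 0.36 (1.35 ± 0.21) and fell in MPI-2 from 8.20 ± 0.17 to 7.55 ± 0.24 (-0.65 ± 0.21), a difference of -2.0 ± 0.30 (adjusted p = 0.000228).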

How the data were processed

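Newly made RNA was purified after 4-thiouridine labelling, 200 ng was amplified and it was hybridised to arrays, 1 colour each, per the labels' protocols. The deposited values are log2 expression values of 34760 probe sets, which the authors made with RMA in affy, per the submitters' processing notes. The log base of 2 was read from RMA and the range of values (1.18 to 12.82). Platform annotation named 1 gene for 21640 probe sets, several for 1321 and none for 11799. Symbols were updated through RefSeq, which held 19855 of the 19937 genes, and the probe set with the highest mean stood for the 954 genes with several. No filter was applied.

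One mean per group was fitted to the 12 arrays by limma (version 3.58.1, under R 4.3.3), with Benjamini-Hochberg adjustment over 19937 genes in each comparison. The fit was tested on simulated data. Arrays have no read depth, and 3 arrays a group limit the precision. The alternatives were 2 scalings, other probe set rules, a filter, other variance models and leaving out arrays. The genes and lists were chosen with earlier results of these data known. Values by array are given for the genes with the largest called differences without overlap in each comparison, those called against the main direction, the smallest adjusted p of each role group, and Mki67, Cenpa, Top2a, Cdk1, Plk1, Ccna2, Aurkb and Birc5. Promoters came from RefSeq's table (GRCm38.p6).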

Additional observations from a re-analysis of the deposited data

Results flagged for a closer look

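The response to LPS differed between MPI-2 and BMM past the threshold of the interaction test in limma for 7 of the 51 mitosis genes. This share was close to the 13.4% of all genes. The value given is the response in MPI-2 minus that in BMM on the log2 scale. It was called higher for 9.80% of the 51 and lower for 3.92%, against 11.1% and 9.84% of genes above background. For Mki67 it was -1.63, the BMM arrays rising and those of MPI-2 overlapping. For Cenpa it was 1.42, for Ccna2 0.92 and for Kif23 0.83, each falling in both cell types and farther in BMM. For Smc2 it was 1.19 and for Cdk1 0.85, each called lower in BMM alone in the fit to all 12 arrays. Cdk1 was called lower in MPI-2 too with the 6 MPI-2 arrays fitted alone. For Cdc25b it was -1.15, with a called decrease in MPI-2 alone. The calls of Cdk1 and Kif23 were lost without single arrays, at 0.58 and 0.71 at the lowest. Groups of 3 arrays were not tested for outlying samples.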

How the results depend on the processing

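No called difference changed direction in any of 22 alternative fits (21 for the difference of responses). In all of them 11 of the 20 calls for the LPS response of BMM stayed, 11 of the 19 for that of MPI-2, 5 of the 7 for their difference, and 49 and 50 of the 51 between cell types in mock and LPS. For LPS in BMM, 20 genes called became 12 after cyclic loess and 12 with only the compared groups in the fit, and the median moved from -0.32 to -0.08 after cyclic loess. For LPS in MPI-2, 19 became 31 with array weights and 33 with only the compared groups, and the median of -0.36 became -0.24 after quantile scaling and -0.22 after cyclic loess. For the difference of responses, the median of 0.03 became -0.07 and -0.08 under these scalings, and 7 calls became 12 with replicates 1 of BMM mock and 3 of BMM LPS left out together. The cell type median of 2.28 became 2.09 (quantile) and 2.05 (cyclic loess) in mock, and 2.11, 1.95 and, with the mean of all probe sets of a gene, 2.20 in LPS. Both scalings moved the median of all genes there from -0.10 and -0.14 to between -0.02 and -0.01. Leaving out 1 array gave 15 to 22 calls for LPS in BMM, 11 to 23 for LPS in MPI-2, 5 to 10 for the difference and 51 for the cell types, with cell type medians of 2.18 to 2.33 in mock and 2.17 to 2.38 in LPS. Deviations of same-numbered arrays from their group means correlated at r of -0.15 to 0.24, and those of other pairs at -0.20 to 0.21. With 3 arrays a group, this cannot show whether the numbers pair the arrays. The numbers are those of the sample titles, and the descriptions of the MPI-2 mock samples number the replicates differently. With the replicate number as a block the calls were 20, 20, 7, 51 and 51. Under that block Cdca8 was lost and Cdc25b gained for LPS in BMM, Bub1 was gained in MPI-2, and Cdk1 was lost and Top2a gained for the difference. Except where fewer arrays entered, the cause of these changes was not tested. The number of arrays and the background level, close to many BMM values, limit what small differences can show.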
